A study of Mus musculus with 8 samples.

Results

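The genes described here are 52 histone modifier and chromatin remodeler genes, a hand-made list out of 21887 protein-coding genes of the mouse genome. They were examined for 5-hydroxymethylcytosine (5hmC) in germinal center B cells with and without TET2. Each gene was read over a window of its RefSeq span (GRCm38.p6) plus 2 kb on each side. The rule uses no measured value, but the list was chosen with earlier results of these data known. All but Bmi1 and Cbx2 had at least 1 5hmC peak in at least 1 library.

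The series holds genomic DNA of B cells taken from the spleens of C57BL/6 mice, either wild type (WT) or TET2 knockout (KO), with no treatment named. For each genotype 2 libraries, numbered 2 and 3, were made from DNA immunoprecipitated with an antibody-based 5hmC pull-down (hMeDIP-seq), and 4 input libraries were not analysed here. The age of the mice, the construction of the knockout allele and whether it acts in B cells alone are not given in the sources used here. Nothing in the labels ties the libraries of a genotype to different animals, so the p-values read the spread among these libraries alone, and that spread may be technical.

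The processed files hold 1 peak list per immunoprecipitated library, with 270548 to 300954 peaks, and the authors' tables of regions higher in one genotype, called WT-higher and KO-higher here. Read depth is not known. Values by library are given for KO replicates 2 and 3 first and WT replicates 2 and 3 after them. KO replicate 3 had the smallest covered length, 110.6 Mb against 124.8 to 139.3 Mb in the others, and it also had the lowest covered length in 37 of the 47 tested genes before scaling and in 20 after scaling to equal totals. The gene Tet2 itself carried 3001, 2827, 3272 and 2580 scaled covered bases in the KO and then the WT libraries, and coverage of a whole gene does not read a partial deletion. Markers of B cells had 14.7% to 21.5% of their windows under peaks, with peaks in all 4 libraries for 9 of 9 genes. T cell markers had 4.41% to 7.13%, with Cd8a at 0, myeloid markers 7.11% to 9.34%, with Lyz2 at 0, and erythroid markers 7.69% to 9.12%. These values are levels of 5hmC coverage and do not count cells.

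TET2 oxidizes 5-methylcytosine to 5hmC, a mark that in many tissues is found in the bodies and enhancers of active genes. The enzymes listed here write, remove or read marks on histones, or move nucleosomes with the energy of ATP. Several of them, among them Kmt2d, Crebbp, Ep300, Ezh2 and Arid1a, are known as genes altered in lymphomas that arise from germinal center B cells. EZH2 and its Polycomb partners are also known to hold the germinal center programme in place.

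Peaks covered about as much of these genes as of other genes. In the KO libraries 5.15% and 3.82% of the combined windows lay under peaks, and in the WT libraries 5.03% and 5.23%. Over all protein-coding genes the shares were 5.14%, 4.09%, 4.80% and 5.22% in the same order. The list is of long genes, with a median span of 69423 bases against 17169 for all genes, and so held more regions per gene. Peaks of the 4 libraries that touched were merged into union regions, and the genes had a median of 10 against 3 over all genes. Of their 757 union regions, 368 (48.6%) had a peak in all 4 libraries, against 58.0% over all gene windows. Peaks of both WT libraries and no KO library were present in 26, and of both KO libraries and no WT library in 11. Over all gene windows these counts were 3329 and 1880 of 148856 union regions, so WT exceeded KO there too.

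The median peak in these genes was lower than the median of the whole peak list in every library. The whole list includes peaks outside genes, and the peaks of all gene windows were not compared. The fold enrichment of a peak is the authors' own value, its signal over the background of the peak caller, and is read here only within a list. The median peak of the genes had a fold enrichment of 4.30 in KO replicate 2, where the median of the whole list was 5.10. It was 4.04 against 4.38 in the other KO library, and 4.75 against 5.51 and 4.11 against 4.89 in the WT libraries. The highest peak of the genes was the same one in every library, inside Arid1b, at 15.9, 13.0, 18.1 and 17.3-fold in the same order.

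**Figure D1:**
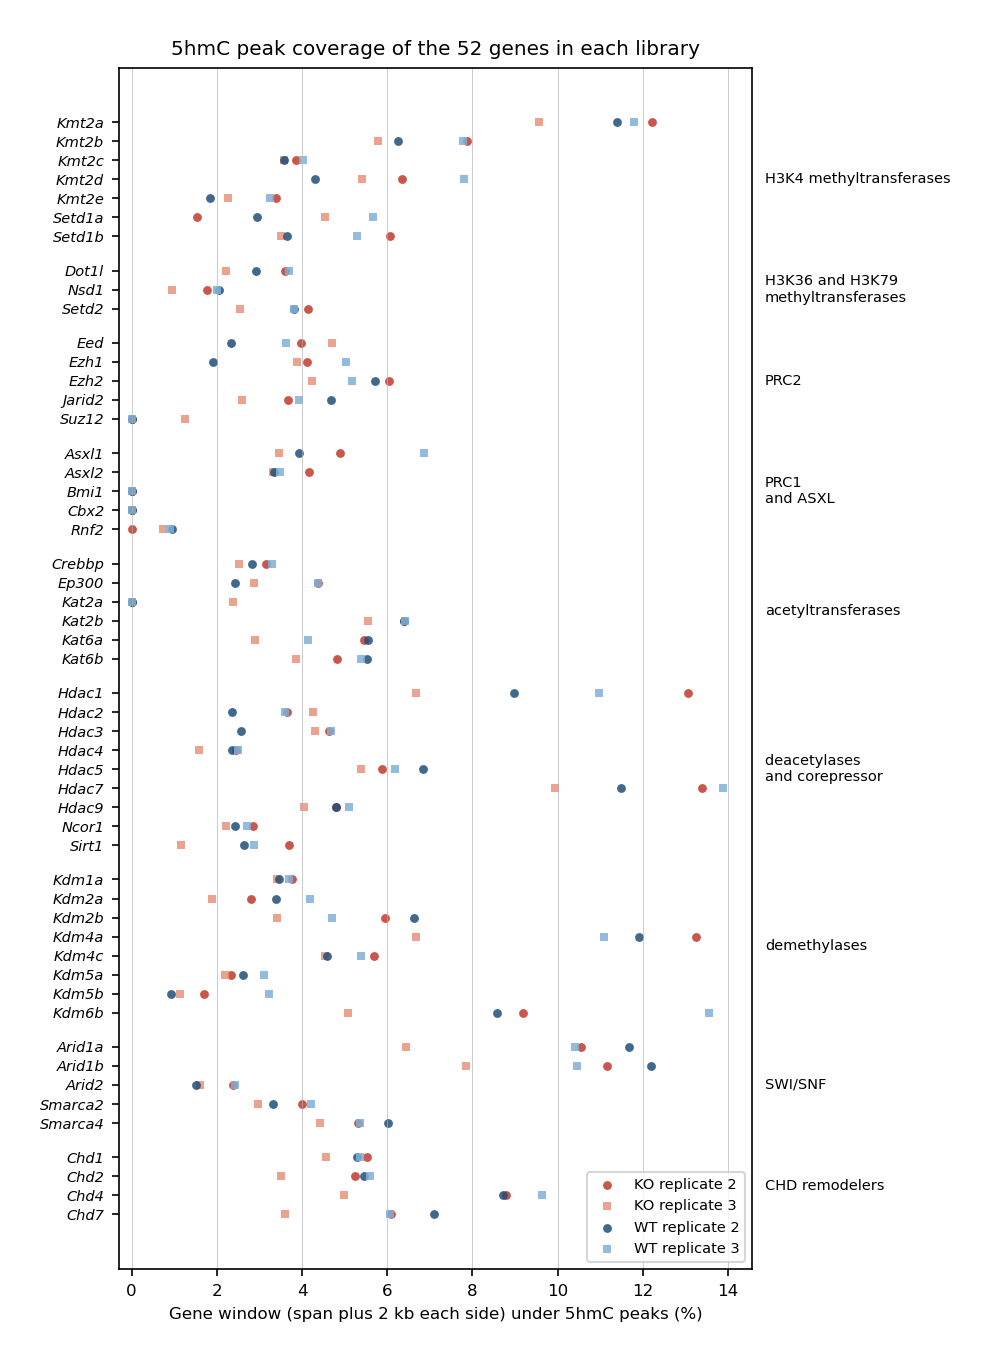
Percent of each gene window under 5hmC peaks (x axis) for the 52 genes (y axis, grouped by role), with 1 point per library. Hdac7, Kmt2a, Kdm4a and Hdac1 lie far to the right, Bmi1 and Cbx2 sit at 0, and KO replicate 3 (light red squares) is often the lowest point of a gene.

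Coverage differed widely between the genes. The highest summit density was in Hdac1, a class I histone deacetylase, with a mean of 2.37 summits per 10 kb. Its library values were 2.95 and 1.96 in KO and 2.29 and 2.29 in WT, so the genotypes overlapped. Kdm6b, an H3K27 demethylase, followed with a mean of 2.32 and Hdac7, a class IIa deacetylase, with 2.24. At the low end Bmi1 and Cbx2, both subunits of Polycomb repressive complex 1 (PRC1), had no peak in any library.

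The promoters of these genes were richer in CpG than promoters overall and overlapped peaks about as often. A RefSeq table of GRCm38.p6 promoter windows, 250 bases before to 50 bases after each start, held 51 windows for 37 of the 52 genes. Of these, 5 (9.80%) overlapped a peak in at least 1 library, against a background of 9.41% over all promoter windows. That background held 32851 windows of 27025 genes. These are more than the 21887 protein-coding genes, so it reached beyond the protein-coding genes used elsewhere and is not a set of like genes. The letters CG, which read the same on both strands, were counted in each window. Windows with at least 20 of them made up 68.6% of the genes' windows and 26.5% of all windows, and at least 1 CG was present in 96.1% and 94.6%. Of the 35 windows of the genes with 20 or more, 3 had a peak, and of the 8701 such windows among all windows 6.52% did. The median of the genes was 29 against 7 over all windows. No promoter window of the genes overlapped a WT-higher region.

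The 5 windows with a peak were 2 of Chd4 and 1 each of Dot1l, Hdac7 and Arid1b. Both Chd4 windows had a peak in all 4 libraries, and the window at its outermost start (chr6:125095731-125096030, plus strand) had 300 and 207 of its 300 bases covered in the KO libraries and 213 and 206 in the WT libraries. The Dot1l window (chr10:80754953-80755252, plus strand) was covered over 75, 0, 67 and 28 bases in that order, the Hdac7 window (chr15:97844453-97844752, minus strand) over 0, 101, 64 and 62, and the Arid1b window (chr17:4994824-4995123, plus strand) over 49, 0, 0 and 21. Coverage of the last 3 was at an edge of a peak, with no summit inside, and did not follow the genotype. The windows of Kmt2a (chr9:44881240-44881539, minus strand) and Kmt2c (chr5:25498734-25499033, minus strand) had no peak in any library, and that of Kmt2c held 56 CG, the most among the genes. The 250 bases before the start of these 6 genes are shown so that stretches with and without peaks can be compared. Within the stretch shown, the KO libraries covered 250 and 207 bases of Chd4 and the WT libraries 213 and 206. Dot1l had 75 and 0 in KO and 67 and 28 in WT, and Hdac7 had 0 and 51 in KO and 14 and 12 in WT. No base of the Arid1b stretch was covered, since its peaks lay after the start, nor any base of the stretches of Kmt2a and Kmt2c. They were chosen after the values were seen, are written 5′ to 3′ on the strand of the gene, and capitals mark CG.
Chd4: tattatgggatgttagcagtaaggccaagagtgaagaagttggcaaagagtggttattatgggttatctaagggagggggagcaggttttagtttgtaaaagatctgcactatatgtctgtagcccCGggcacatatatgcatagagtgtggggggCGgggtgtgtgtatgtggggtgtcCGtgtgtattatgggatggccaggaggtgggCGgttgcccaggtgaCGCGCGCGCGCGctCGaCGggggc
Dot1l: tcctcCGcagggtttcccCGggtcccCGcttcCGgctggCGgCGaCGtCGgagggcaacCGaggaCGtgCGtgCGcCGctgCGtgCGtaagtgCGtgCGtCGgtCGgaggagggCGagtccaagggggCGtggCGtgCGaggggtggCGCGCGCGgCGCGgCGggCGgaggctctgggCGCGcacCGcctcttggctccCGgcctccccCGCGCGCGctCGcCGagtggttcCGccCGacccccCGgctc
Hdac7: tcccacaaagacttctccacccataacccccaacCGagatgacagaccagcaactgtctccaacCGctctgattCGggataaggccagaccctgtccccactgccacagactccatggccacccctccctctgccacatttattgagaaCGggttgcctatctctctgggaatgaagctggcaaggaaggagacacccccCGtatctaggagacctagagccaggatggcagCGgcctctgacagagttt
Arid1b: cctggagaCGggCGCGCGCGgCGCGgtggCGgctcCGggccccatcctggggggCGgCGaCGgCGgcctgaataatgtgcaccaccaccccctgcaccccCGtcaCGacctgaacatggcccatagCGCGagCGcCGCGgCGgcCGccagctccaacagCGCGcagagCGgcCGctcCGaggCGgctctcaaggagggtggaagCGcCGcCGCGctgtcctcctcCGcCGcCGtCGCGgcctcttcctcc
Kmt2a: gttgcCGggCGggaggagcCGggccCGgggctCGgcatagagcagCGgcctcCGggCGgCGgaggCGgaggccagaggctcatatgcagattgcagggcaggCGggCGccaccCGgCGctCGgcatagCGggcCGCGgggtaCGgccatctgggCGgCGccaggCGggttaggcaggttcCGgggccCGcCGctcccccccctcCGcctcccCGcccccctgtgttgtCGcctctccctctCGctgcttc
Kmt2c: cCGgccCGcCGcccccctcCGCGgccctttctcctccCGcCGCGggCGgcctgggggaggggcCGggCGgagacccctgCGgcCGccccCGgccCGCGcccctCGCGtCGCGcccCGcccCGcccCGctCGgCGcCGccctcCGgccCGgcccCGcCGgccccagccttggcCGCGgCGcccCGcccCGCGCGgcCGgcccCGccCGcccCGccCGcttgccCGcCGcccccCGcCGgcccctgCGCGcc
These stretches held 12 CG in Chd4, 44 in Dot1l, 6 in Hdac7, 37 in Arid1b, 29 in Kmt2a and 48 in Kmt2c. The stretch of Hdac7, the sparsest in CG, and that of Dot1l, among the densest, both touched a peak in 3 of 4 libraries.

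Away from the start the genes gained coverage. In the first 1 kb after their starts, 3.33%, 2.75%, 2.83% and 5.69% of bases lay under peaks in the libraries. Between 1 and 10 kb after the start the shares were 11.3%, 8.33%, 10.6% and 10.7%. All protein-coding starts of the table had 4.88%, 3.66%, 4.55% and 4.91% in the first 1 kb and 5.94%, 4.59%, 5.68% and 6.01% from 1 to 10 kb. The rise was present in every library of both genotypes. Between 10 and 1 kb before the start the shares of the genes were 8.38%, 6.18%, 7.55% and 7.84%. All protein-coding starts had 6.48%, 5.13%, 6.06% and 6.65% there, so the genes stood higher on that side too. The values cover 51 starts of 37 of the 52 genes. Some starts of a gene lie within 10 kb of each other and share bases.

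Peak coverage of the whole gene was compared between KO and WT with limma on log2(scaled covered bases + 200), over the 13998 genes that averaged 500 covered bases or more. Of the 52 genes 47 entered the test, and 0 were called lower or higher in KO at an adjusted p under 0.05 (Benjamini-Hochberg). The background over all genes tested was 0% in both directions, so this count says nothing particular about these genes. At an unadjusted p under 0.05, 1 gene was lower and 0 were higher, against 2.99% and 1.23% of all genes. Both KO libraries lay below both WT libraries in 10 of the 47 genes (background 16.6%) and above them in 6 (background 14.0%). The median log2 change was -0.07, with 30 genes below 0 and 17 above, and the median of all genes was -0.01. Without KO replicate 3 the median was 0.02, so its sign rests on that library. A difference on this scale understates the change of a gene with few covered bases.

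**Figure D2:**
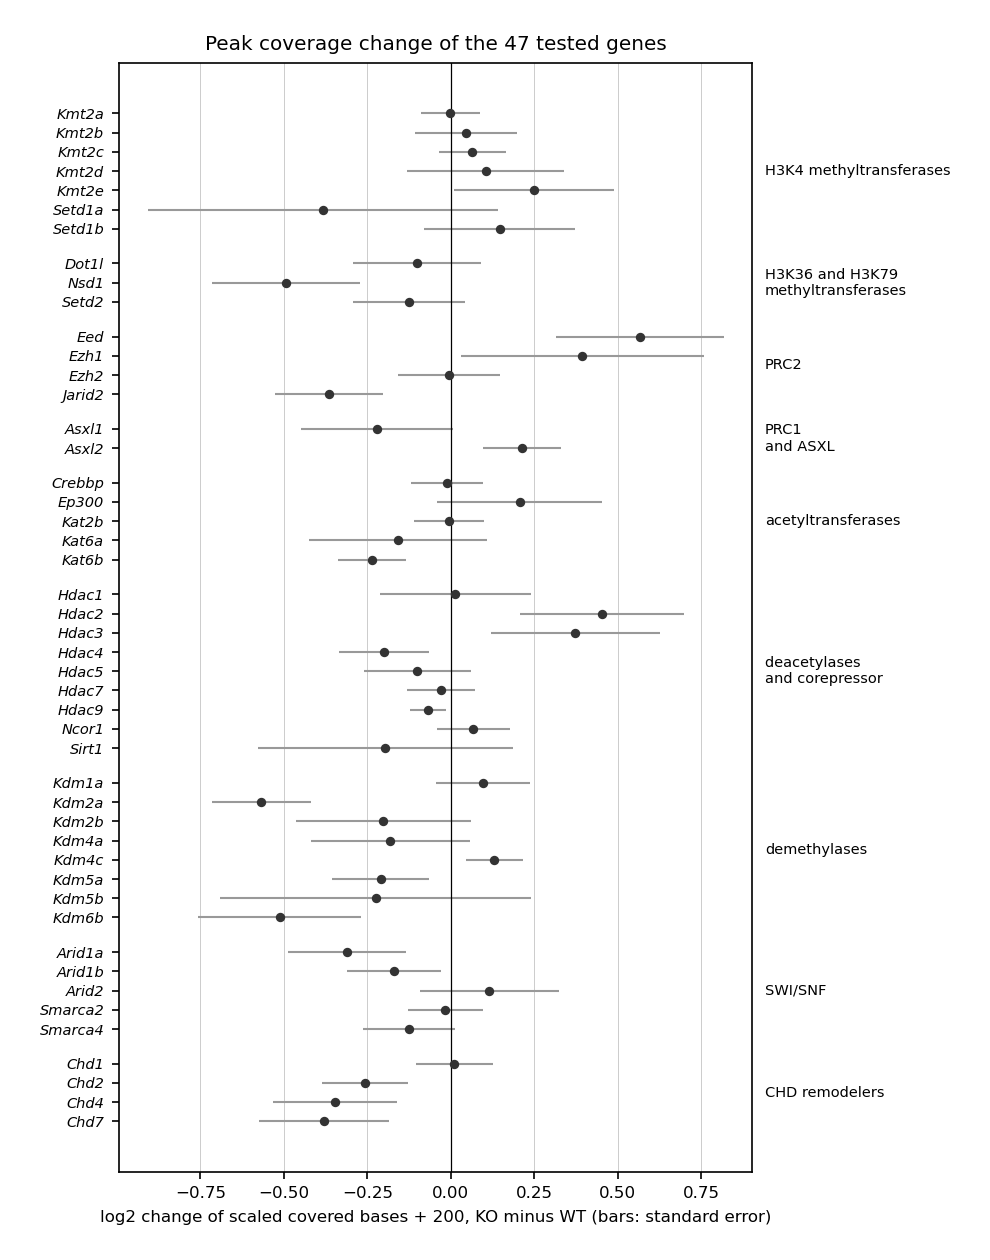
Log2 change of peak coverage, KO minus WT (x axis), for the 47 tested genes grouped by role, with points for the limma estimate from 2 libraries per genotype and bars for 1 standard error. Estimates run from -0.57 (Kdm2a) to 0.57 (Eed), none passed the adjusted threshold, and genes with few union regions, such as Setd1a and Kdm5b, have the widest bars.

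The deposited differential regions gave a different readout. The authors' deposited table has 91 WT-higher regions in the windows of 27 of these genes, and 0 KO-higher regions. The share, 27 of the 50 genes with a union region, stands against 28.3% of all genes with a union region that have a WT-higher region, and 0.104% that have a KO-higher one. Gene size moved with this count: among genes with 3 to 5 union regions 1 of 11 had a WT-higher region (19.1% over all genes in that range), among those with 6 to 10 it was 4 of 14 (36.3%), with 11 to 20 it was 11 of 11 (59.2%), and with 21 or more 11 of 12 (88.3%). The exception among the largest was Hdac4, a class IIa deacetylase with 21 union regions.

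Counted per union region, 75 of 757 (9.91%, Wilson 95% interval 7.98% to 12.2%, which covers counting error only) overlapped a WT-higher region, against a background of 7.26% over all gene windows. Arid1b made up a large part of this. Without it the share was 56 of 668 (8.38%, interval 6.51% to 10.7%), and the background lay inside that interval. No test of this difference was made, since the deposited tables carry no replicate values.

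**Figure D3:**
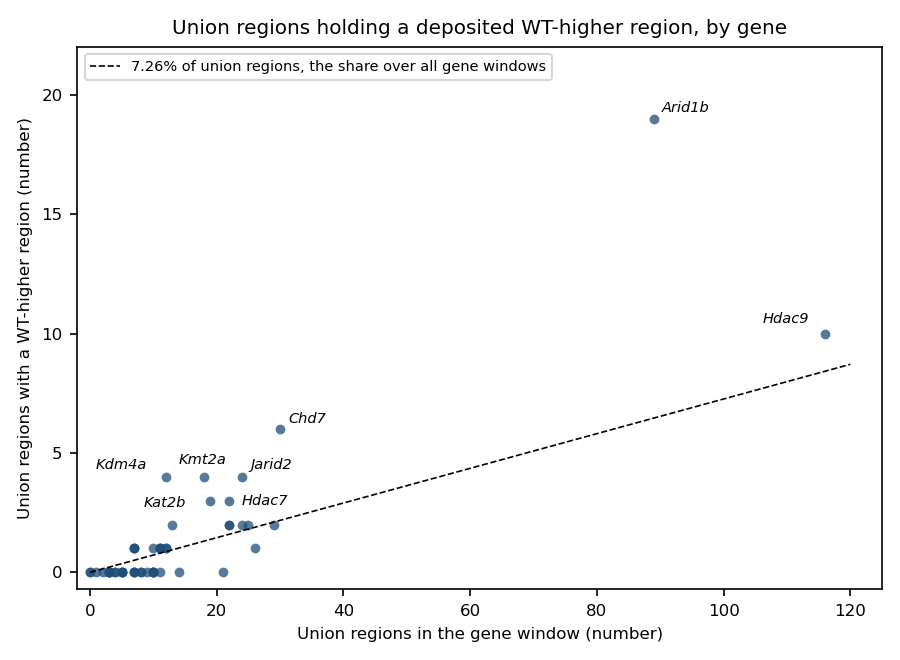
Number of union regions in a gene window (x axis) and number of them that overlapped a WT-higher region (y axis), 1 point per gene, with a dashed line at 7.26%, the share over all gene windows. Arid1b, with 19 of 89, lies far above the line, Hdac9, with 10 of 116, lies just above it, and most genes with few regions lie at 0.

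By the authors' deposited table they were 200 to 549 bases wide, with a median of 252, and 89 of the 91 overlapped a span, while 2 lay in a flank. Spans make up 96.1% of the window bases. None overlapped the window of another protein-coding gene, although 27 of the 52 windows overlap the span of a neighbour, where a peak counts for both genes. A total of 6 had a midpoint within 2 kb of a gene end, in Arid2, Chd1, Hdac7, Kdm2b and Nsd1. The scores in the authors' deposited table ran from 3.21 to 10.3 with a median of 5.07, against 4.77 for all WT-higher regions, on a scale that the sources do not give.

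Fewer of these regions than of others coincided with peaks found in every library. In all, 40 of 91 (44.0%, Wilson 95% interval 34.2% to 54.2%, counting error only) overlapped a peak in all 4 libraries, against 8063 of 11848 (68.1%) over all gene windows. Without Arid1b and Hdac9 it was 26 of 56 (46.4%, interval 34.0% to 59.3%). The union regions of the 52 genes also had a peak in all 4 libraries less often, at 48.6% against 58.0% over all gene windows. Whether this lower rate or gene length accounts for the contrast was not tested. Peaks of the KO libraries were present at 55 and 40 of the WT-higher regions and peaks of the WT libraries at 75 and 64. Peaks of both WT libraries and of neither KO library were present in 11, a peak of WT replicate 2 alone in 9, and a peak of WT replicate 3 alone in 2. These 3 counts were not made over all gene windows, so they have no background. The regions were also picked by the authors as higher in WT, so these counts say nothing particular about these genes. No peak of any library was present in 14 of the 91, against 808 of 11848 over all gene windows. Every region with a peak in KO replicate 3 had one in all libraries, and 11 regions lacked a peak in KO replicate 3 only. KO replicate 3 also has the smallest covered length, and its part in these counts was not tested.

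**Figure D4:**
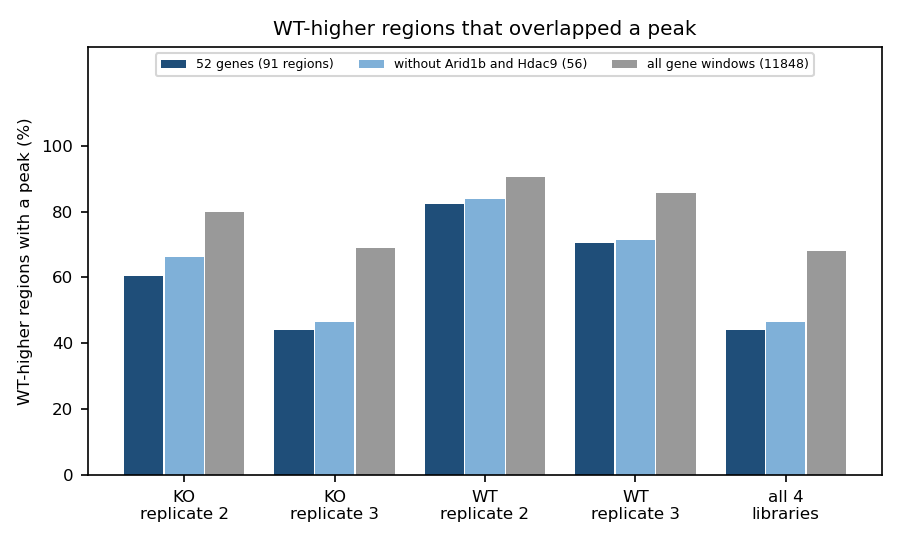
Percent of WT-higher regions that overlapped a peak (y axis) in each library and in all 4, for the 52 genes, for the same genes without Arid1b and Hdac9, and for all gene windows; bars are shares of regions and carry no error bars. The 52 genes stand below all gene windows in every library, at 44.0% against 68.1% for peaks in all 4, and KO replicate 3 is lowest in each set.

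Among the SWI/SNF subunits, which use ATP to slide or evict nucleosomes, all 5 genes had WT-higher regions, 30 in total. These genes had a median of 22 union regions, and 88.3% of all genes with 21 or more had a WT-higher region. Of their 156 union regions 25 (16.0%) overlapped one, against 7.26% over all gene windows. Most of this was Arid1b (chr17:4994297-5347656), a DNA-binding subunit of the canonical BAF complex. Peaks covered 37257 and 32434 scaled bases of it in the KO libraries and 44661 and 34277 in the WT libraries. KO replicate 2 stood above WT replicate 3, so the genotypes overlapped, and the limma log2 change was -0.17 (SE 0.14, n = 2 libraries per genotype, adjusted p = 0.9999). In the authors' deposited table Arid1b has 22 WT-higher regions, with scores from 3.97 to 7.35, and 19 of its 89 union regions (21.3%, interval 14.1% to 31.0%) overlapped one. A peak in all 4 libraries was present at 9 of the 22, in WT replicate 2 alone at 4, in both WT and no KO library at 3, and in none at 3. The region at chr17:5145948-5146206 touched the highest peak of the gene, which was present in all 4 libraries, while that at chr17:5168664-5168921 had peaks in WT replicate 2 (5.07-fold) and WT replicate 3 (3.63-fold) and none in KO.

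**Figure D5:**
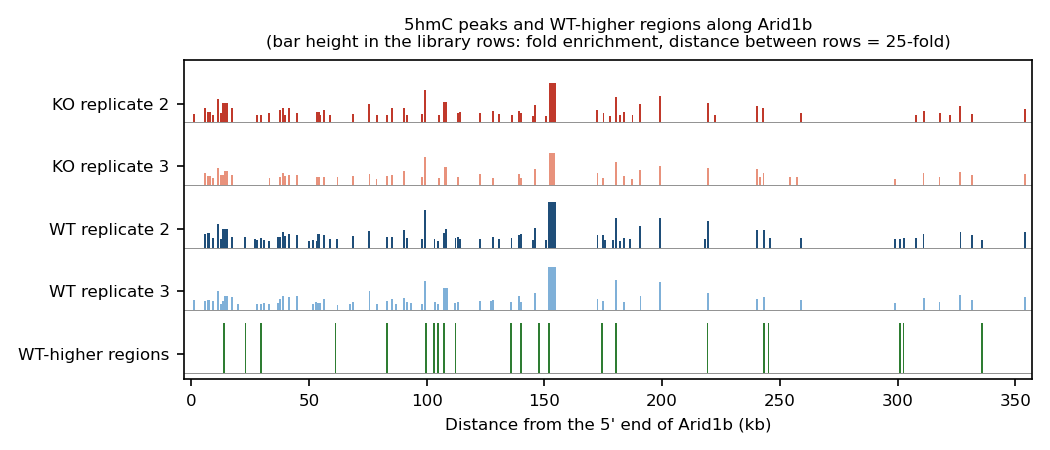
Peaks of each library (bars, height in fold enrichment, rows 25-fold apart) and the 22 WT-higher regions of the authors' deposited table (green, drawn at equal height) by distance from the 5′ end of Arid1b in kb. The tall peak near 152 kb is present in all 4 libraries, and WT-higher regions are spread from 14.1 to 336 kb.

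Arid1a, the paralogous subunit, had 8053 and 6102 scaled bases in KO, 9780 and 7820 in WT, and 2 WT-higher regions. KO replicate 2 again exceeded WT replicate 3. Smarca2, one of the alternative ATPase subunits, had 6641 and 6093 in KO and 6027 and 6872 in WT, with 3 regions, and the WT values lay on both sides of the KO values. Arid2, a subunit of the PBAF form, had 2724 and 2260 in KO and 1894 and 2729 in WT, with 2 regions, 1 of them with no peak in any library. Smarca4, the other ATPase, had 1 region.

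The CHD remodelers are ATP-dependent enzymes with chromodomains. Of their 67 union regions, 8 (11.9%, interval 6.18% to 21.8%) overlapped a WT-higher region, against 7.26% over all gene windows. They had 12 WT-higher regions in 3 of 4 genes. Chd7 (chr4:8690402-8868449), whose product binds enhancers, carried 9 of them. Its scaled bases were 10346 and 7579 in KO and 13250 and 10124 in WT, so the lower WT library lay below the higher KO library, and its log2 change was -0.38 (SE 0.20, adjusted p = 0.9999 by limma). A WT-higher region overlapped 6 of its 30 union regions (interval of the share 9.51% to 37.3%). Only 1 of the 9 had a peak in all libraries, at chr4:8854390-8854928, which has the highest score of the gene in the authors' deposited table, 10.1. Chd1, which moves with elongating RNA polymerase, had 3694 and 3775 scaled bases in KO, 3886 and 3532 in WT, and 2 regions, with all 4 libraries close together. Chd4, the ATPase of the NuRD complex whose promoter is shown above, had no WT-higher region.

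Among the H3K4 methyltransferases, which mark promoters and enhancers, 3 of 7 genes had WT-higher regions, 7 in total. Of the 78 union regions of this group, 7 (8.97%, interval 4.42% to 17.4%) overlapped one, against 7.26% over all gene windows. Kmt2a (chr9:44803355-44881352), which keeps Hox genes active, held 4 of the 7 WT-higher regions, and 4 of its 18 union regions (22.2%) overlapped one. It had 9351 and 9073 scaled bases in KO and 9575 and 8879 in WT. These values differed little, and the WT values enclosed the KO values, although 3 of its 4 regions overlapped a peak in all 4 libraries and the other a peak of WT replicate 2 alone. Kmt2c, an enhancer H3K4 methyltransferase, had 8328 and 9537 in KO, 8479 and 8549 in WT, and 2 regions, both with a peak in all libraries and 1 of them 2312 bases from the 5′ end. Kmt2d, its close relative, had none in the table.

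Of the 95 union regions of the demethylases, 9 (9.47%, interval 5.06% to 17.0%) overlapped a WT-higher region, against 7.26% over all gene windows. The demethylases had 10 WT-higher regions in 4 of 8 genes. Kdm4a (chr4:118136957-118180090), which acts on H3K9 and H3K36, had 4, on 4 of 12 union regions (33.3%). It had 5837 and 3634 scaled bases in KO and 5758 and 4795 in WT, and the KO libraries were the highest and the lowest. Kdm2b, which recruits PRC1 to CpG islands, had 6823 and 4849 in KO and 8333 and 5298 in WT, with 3 regions. None of these 3 had a KO peak, and WT peaks were not present at all of them. The region at chr5:122948175-122948447 had peaks in both WT libraries. That at chr5:122879516-122879742 had a peak in WT replicate 2 alone, and that at chr5:122991078-122991301 had none in any library. Kdm4c, of the same family as Kdm4a, had 8890 and 8783 in KO and 7863 and 8262 in WT, with 2 regions. Both KO libraries of Kdm4c were above both WT libraries although its 2 differential regions are WT-higher ones.

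Kdm2a, an H3K36 demethylase with a CpG-binding domain, had the smallest unadjusted p of the genes and no WT-higher region. Peaks covered 2267 and 1893 of its scaled bases in KO and 3007 and 3336 in WT. Both KO libraries were below both WT libraries, with a limma log2 change of -0.57 (SE 0.15, unadjusted p = 0.0109, adjusted p = 0.9999). With only peaks of at least 5-fold enrichment the change was 0.30, so its direction turned with that setting. Its summits numbered 4 and 3 in KO and 6 and 7 in WT.

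Of the 44 union regions of the PRC2 genes, whose complex writes H3K27 methylation, 5 (11.4%, interval 4.95% to 24.0%) overlapped a WT-higher region. The share over all gene windows was 7.26%. The PRC2 genes had 6 WT-higher regions in 3 of 5 genes. Jarid2 (chr13:44730774-44921643), a subunit that helps recruit the complex, held 4 of them. Peaks covered 6702 and 5857 scaled bases in KO and 9371 and 7051 in WT. Both KO libraries lay below both WT libraries, with a log2 change of -0.37 (SE 0.16, unadjusted p = 0.0708, adjusted p = 0.9999 by limma) that was 0.13 with peaks of at least 5-fold. Without WT replicate 2 the change was -0.17 and without WT replicate 3 it was -0.57. Eed, the subunit that binds methylated H3K27, went the other way, with 1125 and 1654 in KO and 729 and 1006 in WT, a change of 0.57 (SE 0.25, unadjusted p = 0.0706, adjusted p = 0.9999 by limma). Eed had 3 union regions, and its change was 0.33 without KO replicate 3 and 0.38 without WT replicate 2. Suz12, a core subunit, had 561 covered bases in KO replicate 3 and 0 in the others, too few to test, and the methyltransferases Ezh1 and Ezh2 had 1 WT-higher region each.

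No gene of PRC1 or the ASXL group had a WT-higher region, on 20 union regions (0%, interval 0% to 16.1%). The 7.26% over all gene windows lay inside that interval. Bmi1 and Cbx2 had no peak, and Rnf2, the ubiquitin ligase that acts on H2A, had 0 and 264 covered bases in KO and 336 and 318 in WT, too few to test. Asxl2, a partner of the H2A deubiquitinase BAP1, had 3426 and 3376 scaled bases in KO and 3014 and 2805 in WT. Both KO libraries of Asxl2 were above both WT libraries, with a change of 0.21 (SE 0.12, unadjusted p = 0.127, adjusted p = 0.9999 by limma).

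Of the 80 union regions of the acetyltransferases, 6 (7.50%, interval 3.48% to 15.4%) overlapped a WT-higher region, near the 7.26% over all gene windows. These genes had a median of 11.5 union regions, against 3 over all genes. The acetyltransferases had 7 WT-higher regions in 5 of 6 genes. Kat2b, a subunit of SAGA-type complexes, held 3, and all 3 overlapped a peak in every library. It had 6566 and 7061 scaled bases in KO and 7221 and 6476 in WT, with the genotypes overlapping. Kat6b, an H3 acetyltransferase, had 7971 and 7907 in KO and 10053 and 8751 in WT, with both KO libraries below both WT libraries, and a change of -0.24 (SE 0.10, unadjusted p = 0.0661, adjusted p = 0.9999 by limma) that was -0.14 without WT replicate 2. Kat2a, the paralog of Kat2b, had 280 covered bases in KO replicate 3 and none elsewhere. The lymphoma-linked coactivator genes Crebbp and Ep300 each had 1 WT-higher region, that of Crebbp with a peak in all libraries and that of Ep300 with none.

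Of the 197 union regions of the deacetylases and the corepressor Ncor1, 14 (7.11%, interval 4.28% to 11.6%) overlapped a WT-higher region. The share over all gene windows was 7.26%. The group held 18 WT-higher regions in 3 of 9 genes, of which 13 were in Hdac9. This class IIa deacetylase gene (chr12:34047580-34917095) is the longest of the set. Peaks covered 39168 and 40824 scaled bases in KO and 43064 and 40915 in WT. Both KO libraries were below both WT libraries by a small margin, with a log2 change of -0.07 (SE 0.05, adjusted p = 0.9999 by limma). Its WT-higher share, 10 of 116 union regions (8.62%, interval 4.75% to 15.1%), was near the background. The region at chr12:34778787-34779056 has the highest score of any of the 91 in the authors' deposited table, 10.3, and lay on peaks of KO replicate 2 and WT replicate 2 only.

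Hdac7, the deacetylase with 4 WT-higher regions on 22 union regions, is known from lymphocytes. It had 6984 and 6417 scaled bases in KO and 6580 and 7116 in WT, with the genotypes interleaved. Of its 4 regions 3 overlapped a peak in all libraries, and 1 lay 1212 bases from the 5′ end. Hdac2, a class I enzyme, had 1074 and 1559 in KO and 762 and 1045 in WT. Both KO libraries of Hdac2 were above both WT libraries, with a change of 0.45 (SE 0.25, unadjusted p = 0.123, adjusted p = 0.9999 by limma). It was 0.22 without KO replicate 3, 0.27 without WT replicate 2 and 0.68 without KO replicate 2.

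Of the 20 union regions of the methyltransferases for H3K36 and H3K79, 1 (5.00%, interval 0.888% to 23.6%) overlapped a WT-higher region. The share over all gene windows was 7.26%. The WT-higher region was in Nsd1. At chr13:55209768-55210216 it straddled an end of the RefSeq span, which begins at 55209782, and overlapped a peak in all 4 libraries. Setd2 and Dot1l had none. Elsewhere the genes with 1 region each were Setd1b, Ncor1, Chd2, Kdm5a, Kat6a and Kat6b.

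A list of 94 other chromatin genes was read in the same way. They are shorter, with a median span of 39238 bases and a median of 5 union regions. Of these 91 had a union region, 31 had a WT-higher region, and 52 of 845 union regions (6.15%, interval 4.72% to 7.98%) overlapped one. This interval overlaps that of the 52 genes without Arid1b, and the difference was not tested. None of the 73 tested passed the adjusted limma threshold, and at an unadjusted p under 0.05 5 were lower and 0 higher. Their median log2 change was -0.04, with 48 below 0 and 25 above. Mta3, a NuRD subunit, had 6 WT-higher regions and Ncoa3, a coactivator, had 4. Chd9, Ehmt2, Nsd3 and Smyd3 had 3 each. Of the 57 WT-higher regions in the list, 34 (59.6%) overlapped a peak in all 4 libraries.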

How the data were processed

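Immunoprecipitated DNA of 2 KO and 2 WT libraries was analysed. The submitters' processing notes name BWA (0.7.12-r1039), MACS2 (2.1.0.20151222) and the build GRCm38.p3, without settings. The authors deposited a peak list per library, with a fold enrichment (a ratio), a −log10 p-value, a −log10 q-value and a score for each peak. The authors also deposited tables of WT-higher and KO-higher regions with a score, whose scale, caller and compared libraries are not given in the sources used here.

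Gene spans and promoter sequences came from RefSeq tables of GRCm38.p6, whose chromosomes carry the same coordinates. Spans have no exons, so exons and introns were not told apart. Windows were spans plus 2 kb each side, and an overlap needed 1 bp. Library totals of covered bases were equalised, and limma 3.58.1 (R 4.3.3, trend and robust options) was fitted to log2(bases + 200) of the genes averaging 500 bases or more, with Benjamini-Hochberg adjustment at 0.05. The fit was also run on simulated data, and the size of change it could detect is not given here. Shares have Wilson 95% intervals. Read depth is unknown, and inputs were not analysed here.

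Named with library values were the 12 genes with most WT-higher regions (ties included), the 3 with the smallest p in each direction, those without enough coverage to test, and the extremes of summit density. Members and lists were chosen with earlier results of these data known. Of the other chromatin genes, those with most WT-higher regions were named, and 1 gene is not reported here.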

Additional observations from a re-analysis of the deposited data

How the results depend on the processing

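Read depth is unknown, so weak and absent peaks cannot be told apart. The number of genes called by limma was 0 under every other setting that kept all 4 libraries. In those settings 1 to 8 genes had an unadjusted p under 0.05. The share of all genes at that unadjusted threshold was counted in the main fit only, so these counts have no background. With the replicate block 0 were called (8 unadjusted) and the median log2 change was -0.07. The labels do not say that the numbers pair the libraries, and the deviations of same-numbered libraries correlated at 0.0896 over 13998 genes, which are not independent. Without scaling the median was -0.17, with all genes at -0.10, and leaving out 1 library gave -0.090 to 0.020. At a score of at least 5, WT-higher regions numbered 47 and lay on 4.89% of union regions, against 3.13% over all gene windows. With peaks of at least 5-fold enrichment and any score, 14.1% of union regions overlapped a WT-higher region. At that setting 39.7% of union regions had a peak in all 4 libraries, and summits numbered 0.378 per 10 kb against 1.04 in the main setting. Shares over all gene windows were not computed at the 5-fold setting. Of 77 recomputed log2 changes of named genes 2 reversed, both with 5-fold peaks: Kdm2a 0.30 and Jarid2 0.13. A summit inside was found in 1 promoter window. The other settings moved these results by less than their interval, their spread between libraries or 1.5 times. With 1 library left out, the lone one is assumed to vary like the other genotype. The settings without Arid1b, without Arid1b and Hdac9 and with union regions in all 4 libraries were chosen after seeing the data. The cause of the differences was not tested.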
